A study of Gallus gallus with 14 samples.

Results

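Transcript levels in male embryonic gonads were compared with those in blastodermal cells (BC), the cells of the disc on the yolk of a freshly laid egg. The members were the transcripts that reached at least 1 FPKM (fragments mapped to a transcript, scaled by its length and by the fragments mapped in the library) in at least 1 of 6 RNA-seq libraries. They numbered 22368 of the 42501 transcripts in the table, and 5472 of them carried a RefSeq mRNA identifier, which begins with NM_, out of 6528 such transcripts in all. A gene symbol was found for 5166 of the 5472, covering 4937 different genes, and the named results are limited to these. At the threshold, 32 of the RefSeq transcripts had a highest value between 1 and 1.1 FPKM, and 39 with a highest value between 0.9 and 1 FPKM stayed outside.

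The study followed piRNAs, small RNAs that silence transposons in the germ line, through male germ cell development in chicken, and its 14 samples hold 8 small RNA libraries beside the 6 RNA-seq libraries used here. The gonads were taken at embryonic day 11 (E11G) and embryonic day 14 (E14G) and are labelled male, with 2 libraries of each stage. The 2 BC libraries came from fertilized eggs that had not been incubated, and their labels give no sex. All 6 libraries were made from the JA57 breed, and each RNA sample was pooled from several embryos or left gonads, so that a library is a whole tissue from a group of animals. The RNA-seq labels carry no replicate numbers, and the libraries were numbered here in order as E11G1, E11G2, E14G1, E14G2, BC1 and BC2. P-values measure the spread between these libraries, which may be technical. Age, tissue and the sex make-up of the pools change together between BC and gonads and cannot be told apart in this design.

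As background, the blastoderm at laying consists of epithelial epiblast cells that are not yet committed to a lineage and of forming hypoblast cells beneath them, and it still holds maternal RNA from the egg. The male gonad at these embryonic days has already taken the testicular path. Sertoli cells, which make anti-Müllerian hormone (AMH) and enclose the germ cells in cords, lie beside steroid-producing interstitial cells, mesenchyme, vessels and circulating blood cells, and germ cells are a minority. In bulk RNA, fewer cells of a type and less RNA per cell cannot be told apart.

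One gonad library labelled male differed from the others in a check of its sex. In chicken, males carry Z chromosomes only and females carry a Z and a W chromosome. Transcripts from the assembled W chromosome were therefore read in each library as a check of the sex labels. HNRNPKL, the W-linked copy of an RNA-binding protein gene, was at 9.02 and 0.0254 FPKM in E11G, 0 and 0.0174 FPKM in E14G and 40.7 and 38.5 FPKM in BC. The W-linked transcripts UBAP2L2, LOC427025 and SMAD7B followed the same order, with 2.19, 1.68 and 0.375 FPKM in E11G1, at most 0.00477 FPKM in the other 3 gonad libraries, and means of 7.83, 11.3 and 1.78 FPKM in BC. E11G1 thus held between 14.9% (LOC427025) and 27.9% (UBAP2L2) of the BC level of these 4 transcripts, while E11G2, E14G1 and E14G2 held almost none. Over all 25 transcripts of the assembled W chromosome that passed the filter, 23 were under 0.1 FPKM in the other 3 gonad libraries, and 22 of these 23 were above 0.1 FPKM in E11G1. The exceptions carried no gene name. An exception was at 12.8, 14.7 and 23.4 FPKM in E11G2, E14G1 and E14G2 and listed at 0 in BC. The other was at 5.54, 5.49 and 6.03 FPKM in those gonad libraries and 46.1 and 48.9 FPKM in BC. Their presence in these libraries was not tested further. The count leaves out the transcripts on scaffolds assigned to W, which bring the tested W transcripts to 43. Some of these, such as RAD9A (21.7 to 24.9 FPKM), were present in every gonad library. Others, such as a scaffold row of UBAP2L2, were at 1.69 FPKM in E11G1 and listed at 0 in E11G2, E14G1 and E14G2. A list of names that W-linked genes carry, which matched 4 tested transcripts, gave 3 lower in the gonads and 1 higher. The last was HINT2, whose row lies on chromosome Z in the table and which does not bear on the W check, and it was not called without BC1 or without BC2 (adjusted p = 0.109 and 0.0608).

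In the same library some transcripts of the female gonad stood apart and others did not. CYP19A1, the aromatase that makes estrogen and a marker of the ovary, was at 116 FPKM in E11G1, between 0.0137 and 0.0188 FPKM in the other 3 gonad libraries, and listed at 0 in BC. FOXL2 was also higher in E11G1 than in E11G2 (2.45 and 0.188 FPKM). ESR1 (22.1 and 21.6 FPKM), WNT4 (5.57 and 4.52 FPKM), NR0B1 (36.8 and 55.0 FPKM) and FST (7.21 and 7.97 FPKM) did not stand apart in E11G1. AMH, a product of Sertoli cells, was high in both E11G1 and E11G2 (3797 and 4696 FPKM). A count made after the values were seen found 18 named RefSeq transcripts with at least 2 FPKM in E11G1 and at least 4 times the highest of the other gonad libraries, against 0 such transcripts in E11G2, 0 in E14G1 and 1 in E14G2. Besides CYP19A1 and the W-linked HNRNPKL and UBAP2L2, they included HSD17B1, which activates sex steroids, at 18.0 FPKM in E11G1 and 0.606 to 1.68 FPKM in the other gonad libraries. Neural transcripts were also among them, with STMN2 at 9.45 FPKM in E11G1 and 0.201 to 0.516 FPKM in the others, and TH, the first enzyme of catecholamine synthesis, at 2.68 FPKM against 0.0255 to 0.111 FPKM. HSD17B1 and TH are named here because of these values. The differences given below were run with and without E11G1, and named calls that changed are given in the text. List counts that changed are given beside the result, except in 4 lists. For the maternal, kidney, neural crest and insulin-like growth factor lists, only the named members that changed are given.

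**Figure D1:**
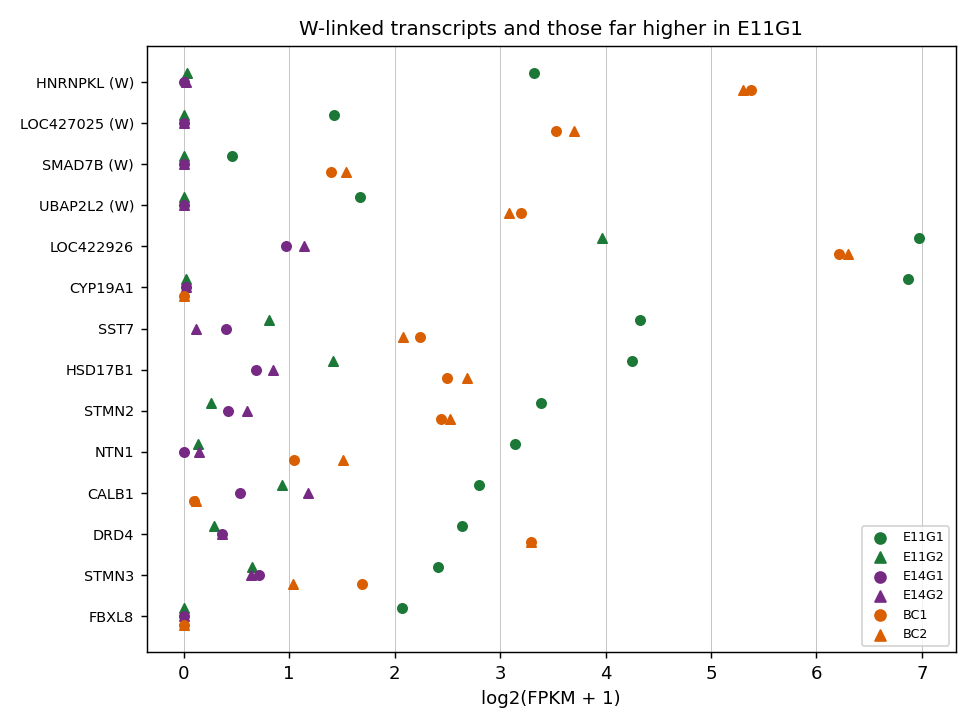
Levels of the 4 RefSeq transcripts of the assembled W chromosome, marked (W), and of the 10 highest other transcripts that are at least 4 times higher in E11G1 than in every other gonad library; the x axis gives log2(FPKM + 1), and each point is 1 library. HNRNPKL reads 9.02 FPKM in E11G1 and at most 0.0254 FPKM in the other 3 gonad libraries, and CYP19A1 reads 116 FPKM in E11G1 alone.

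The table holds no read counts, so the depth of the libraries is unknown and no counting interval can be given. Between 4797 (BC1) and 5174 (E11G1) of the 5472 RefSeq transcripts were at 1 FPKM or more in a library. Across these transcripts on the log2(FPKM + 1) scale, Pearson's r between libraries was 0.973 to 0.993 for the 6 pairs of gonad libraries, 0.997 for the BC pair and 0.726 to 0.737 for the 8 pairs of a gonad library with a BC library. These correlations are across genes, which are not independent replicates, and serve as a description. Gonads were compared with BC by limma on log2(FPKM + 1), as the mean of E11G and E14G minus BC, with Benjamini-Hochberg adjustment over all 22368 transcripts and a threshold of 0.05. Differences below are on this scale with their standard error, over 4 gonad and 2 BC libraries, and they understate the change of low transcripts.

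Most of the transcriptome differed between gonads and BC. Of the 22368 transcripts, 17959 (80.3%) passed the threshold, 8760 (39.2%) higher and 9199 (41.1%) lower in the gonads. Of the 5472 RefSeq transcripts, 4639 (84.8%) passed, 1941 (35.5%) higher and 2698 (49.3%) lower, and 833 did not. These shares are the background against which the gene groups below are read. Without E11G1, 4538 RefSeq transcripts passed, 1861 higher and 2677 lower. The gonad and BC values of 4743 RefSeq transcripts (86.7%) did not overlap. A permutation of the libraries has only 15 splits of 4 against 2 and cannot give an exact p below 0.0667. The calls rest on the spread of each transcript within the groups, with 3 residual degrees of freedom. The limma model moderates it by a trend over all transcripts (median prior of 2.25 degrees of freedom).

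The changes were spread unevenly between the directions. The median difference over RefSeq transcripts was -0.24 and over all transcripts -0.02, and 2904 RefSeq transcripts (53.1%) lay within 1 log2 unit of 0. At least 2-fold, 1086 (19.8%) were higher and 1474 (26.9%) lower in the gonads. In the extremes the order turned, with 91 transcripts above 4 and 51 below -4, and 14 above 6 and 9 below -6. The scaling of the libraries bears on the moderate changes. Median-of-ratios scaling moved the median of all transcripts to 0.22, and that of RefSeq transcripts to 0.05, so that 2392 were called higher and 2270 lower, or 51.3% higher among the called against 41.8% with the deposited scaling. The direction of small differences therefore depends on the scaling.

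**Figure D2:**
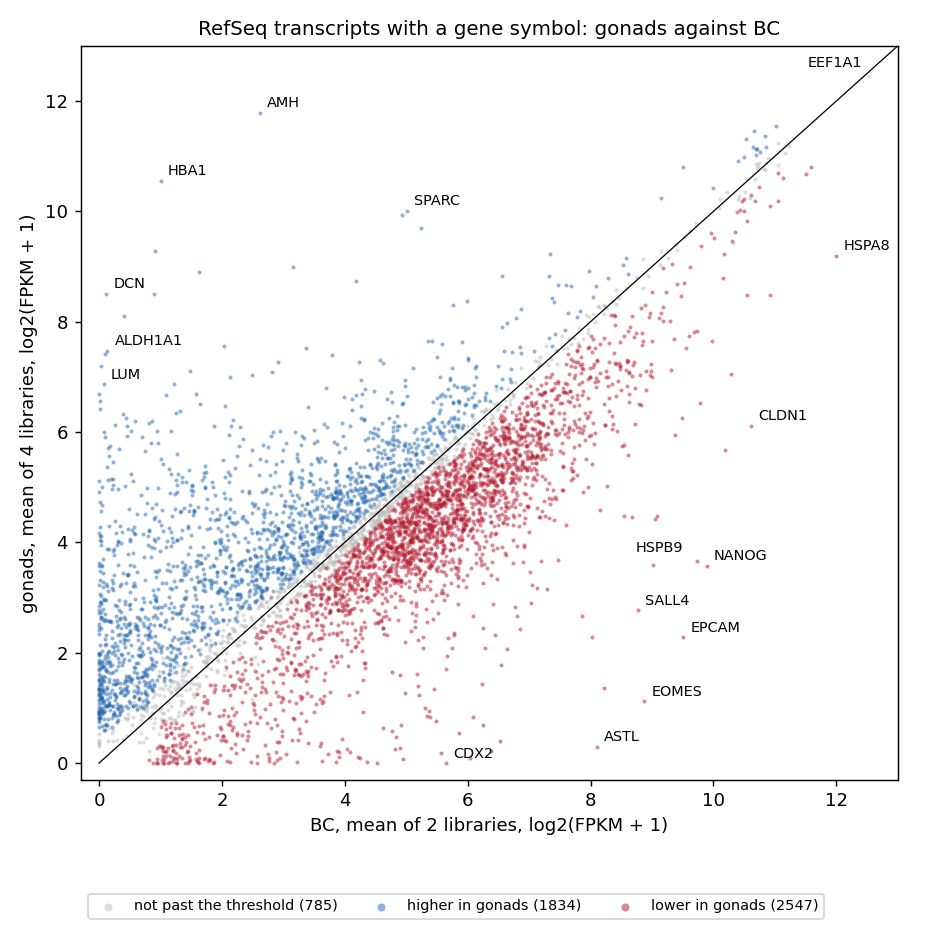
Mean log2(FPKM + 1) over the 4 gonad libraries (y axis) against the mean over the 2 BC libraries (x axis) for the 5166 RefSeq transcripts with a gene symbol, with the line of equality. Blue points passed the limma threshold as higher in gonads, red as lower, and grey did not pass; AMH and HBA1 stand far above the line, and EOMES, ASTL and NANOG far below it.

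The most abundant transcripts of both tissues belonged largely to protein synthesis. EEF1A1, which delivers aminoacyl-tRNA to the ribosome, was the highest in gonads and in BC, with 5547 and 5978 FPKM in E11G, 5765 and 5269 FPKM in E14G and 5806 and 6046 FPKM in BC. Its groups overlapped, and the difference was -0.07 ± 0.11 (adjusted p = 0.576). Next in the gonads came AMH, with 3797 and 4696 FPKM in E11G and 3056 and 2906 FPKM in E14G, and the ribosomal protein transcripts RPL26L1, RPS6, RPL39L, RPLP1, RPL23, RPL37A and RPL17 were also among the 10 highest, with RPS6 at 2449.7 and 2767 FPKM in E11G and 2783 and 2636 FPKM in E14G. AMH was the only one of these 9 without a part in translation. Of the 9, 6 passed the threshold as higher in gonads and 3 did not (EEF1A1, RPLP1 and RPL23). Without BC1, the calls of RPS6 (difference 0.44), RPL37A (0.26) and RPL17 (0.46) were lost as well. RPL37A also lost its call without BC2 (0.36), E11G1 (0.31), E11G2 (0.30) or E14G1 (0.25), and without a filter. It was not called with the gonads as 1 group (limma, adjusted p = 0.0970), under quantile scaling (0.14) or with E11G alone against BC (0.17). Under median-of-ratios scaling RPLP1 (0.50, adjusted p = 0.00419) and RPL23 (0.27, 0.0318) were called higher. Reads of near-identical ribosomal copies may have been divided between transcripts by the authors' estimate. The levels of the transcripts that the reference calls RPL26L1, RPL39L and RPSAP58 are therefore uncertain. Another RPL26L1 row was called lower in the gonads (-1.99).

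In BC, HSPA8, the constitutive heat shock cognate that folds newly made proteins, came after EEF1A1, with 619 and 553 FPKM in E11G, 609 and 561 FPKM in E14G and 3804 and 4412 FPKM in BC. It was lower in every gonad library (-2.81 ± 0.10, adjusted p = 1.31e-05). PPIA, a prolyl isomerase, followed at 2995 and 3185 FPKM, and 1672 to 1881 FPKM in the gonads (-0.78 ± 0.09). GAPDH, a glycolytic enzyme often taken as a reference gene, was at 1986 and 2278 FPKM in BC and 953 to 1484 FPKM in the gonads (-0.86 ± 0.14, adjusted p = 0.00267, but 0.0701 after rescaling all libraries to the same summed value, as in TPM). RPS2, RPL23, RPL19, RPS29, RPSAP58 and RPL8 made up the rest of the 10 highest, and RPL23, RPL19 and RPL8 did not pass the threshold. Under quantile scaling RPL8 was called lower (-0.33, adjusted p = 0.0102). The call of RPSAP58 was lost without E11G1 (adjusted p = 0.0598), and its difference was -0.09 under TPM and -0.05 under median-of-ratios scaling, not called in either. RPS29 was not called without BC1 (-0.41, adjusted p = 0.0564), under TPM (-0.25) or under median-of-ratios scaling (-0.21), and PPIA was not called under TPM (-0.51, adjusted p = 0.0512). Among the 100 transcripts with the highest mean over all libraries, the 5 closest to no difference were YBX1, TMSB4X, RPL22, RPL7 and RPL35. Their differences lay between -0.03 and 0.03 with the deposited scaling. Under median-of-ratios scaling YBX1 (0.33, adjusted p = 0.00290), TMSB4X (0.33, 0.0180), RPL22 (0.34, 0.00476) and RPL7 (0.34, 0.0205) were called higher in the gonads, YBX1 and TMSB4X also under quantile scaling (0.22 and 0.30). YBX1, an RNA-binding protein that packages mRNA, was at 695 and 695 FPKM in E11G, 791 and 783 FPKM in E14G and 712 and 748 FPKM in BC, and TMSB4X, an actin-sequestering peptide, at 619 and 654 FPKM in E11G, 676 and 789 FPKM in E14G and 669 and 674 FPKM in BC. Their gonad and BC values overlapped.

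The largest rises in the gonads included 3 globins, AMH and 5 transcripts of the extracellular matrix. Leaving out HBE1, which was listed at 0 in BC, the 12 largest had differences between 6.79 (LUM) and 9.55 (HBA1). Over all 12, standard errors were 0.05 to 0.25 and adjusted p lay between 2.17e-06 and 1.15e-05. They were chosen by these values, so their order is a description. Positions are on galGal5 as the table gives them for the locus of the transcript. The first was HBA1, an alpha globin (chromosome 14, 12163630 to 12164436), with 1253 and 1347 FPKM in E11G, 1629 and 1859 FPKM in E14G and 1.18 and 0.837 FPKM in BC (9.55 ± 0.10). AMH (chromosome 28, 2018794 to 2022986) followed, at 5.33 and 4.97 FPKM in BC, with a difference of 9.17 ± 0.10. The 4 gonad values of AMH lay far above both BC values, and both E11G values exceeded both E14G values. HBAD (chromosome 14, 12160612 to 12161523), the alpha D globin, was at 490.3 and 569 FPKM in E11G, 632 and 847 FPKM in E14G and 0.858 and 0.885 FPKM in BC (8.38 ± 0.14).

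Matrix transcripts took 5 of the 12 places. DCN, decorin, a proteoglycan that binds collagen fibrils (chromosome 1, 44020263 to 44058900), was at 293 and 349.8 FPKM in E11G, 450.4 and 379 FPKM in E14G and 0.0652 and 0.101 FPKM in BC (8.40 ± 0.11). COL1A2, a chain of fibrillar type I collagen (chromosome 2, 23601204 to 23640175), was at 391 and 383 FPKM in E11G, 342 and 337 FPKM in E14G and 0.71 and 1.03 FPKM in BC (7.61 ± 0.08). COL3A1, type III collagen (chromosome 7, 584125 to 634517), was at 483 and 578 FPKM in E11G, 450.4 and 415 FPKM in E14G and 1.76 and 2.45 FPKM in BC (7.28 ± 0.12). In these 3 transcripts the lowest gonad value was over 100 times the highest BC value. POSTN, periostin, and LUM, lumican, both of the collagen matrix, were at 149.9 to 182 FPKM and 84.6 to 158 FPKM in the gonads and at most 0.104 and 0.0587 FPKM in BC (7.31 ± 0.08 and 6.79 ± 0.13). LUM and DCN lie on chromosome 1.

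The other 4 places went to a contractile protein, a retinal dehydrogenase, a defensin and a beta globin. ACTA2, the smooth muscle actin (chromosome 6, 19233142 to 19238928), was at 265 and 249 FPKM in E11G, 284 and 298 FPKM in E14G and 0.297 and 0.352 FPKM in BC (7.69 ± 0.06). ALDH1A1 (chromosome Z, 35894470 to 35947479), which makes retinoic acid, was at 171 and 194 FPKM in E11G, 189 and 158 FPKM in E14G and 0.098 and 0.094 FPKM in BC (7.35 ± 0.10). AvBD10 (chromosome 3, 107884712 to 107887350), an avian beta-defensin with antimicrobial action, was at 229.5 and 171 FPKM in E11G and 80.1 and 141 FPKM in E14G and at 0 and 0.0547 FPKM in BC (7.15 ± 0.25). It varied more among gonads than the others, from 80.1 to 230 FPKM. HBE1, an epsilon-type beta globin, was at 85.8 and 86.4 FPKM in E11G and 121 and 121 FPKM in E14G and listed at 0 in both BC libraries, so no fold is given. Its row shares a locus on an unplaced scaffold of chromosome 1 with 2 other globin rows, and its level rests on how the fragments were divided among them. Another HBE1 row, alone at its locus on assembled chromosome 1, read far lower. It was at 3.77 and 2.59 FPKM in E11G, 5.9 and 7.01 FPKM in E14G and listed at 0 in BC (2.47 ± 0.15).

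The 12 largest falls included 5 members of the early embryo list (EOMES, NANOG, LIN28A, SALL4 and MYC). The falls were chosen by their differences and the list was written with earlier results of these data known, so this overlap is a description. Leaving out CDX2, which was listed at 0 in the gonads, the 12 largest had differences between -7.81 (ASTL) and -5.74 (MYC). Over all 12, standard errors were 0.06 to 0.19 and adjusted p lay between 2.17e-06 and 6.14e-06. ASTL, an astacin-like metalloprotease that in mammals is known from the egg (chromosome 5, 22351058 to 22362936), was at 0.327 and 0.127 FPKM in E11G, 0.156 and 0.32 FPKM in E14G and 270.1 and 279 FPKM in BC (-7.81 ± 0.11). EOMES, a T-box transcription factor of early mesendoderm (chromosome 2, 38739415 to 38744142), was at 2.24 and 2.27 FPKM in E11G, 0.516 and 0.398 FPKM in E14G and 454 and 485 FPKM in BC (-7.76 ± 0.07). EPCAM, an adhesion molecule of epithelia (chromosome 3, 8650472 to 8655631), was at 5.53 and 3.13 FPKM in E11G, 3.41 and 3.69 FPKM in E14G and 698 and 757 FPKM in BC (-7.23 ± 0.19). All 3 were below 6 FPKM in every gonad library and above 200 FPKM in both BC libraries.

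NANOG, a homeobox factor that holds cells pluripotent (chromosome 1, 75915830 to 75918614), was at 28.7 and 29.2 FPKM in E11G, 3.24 and 4.33 FPKM in E14G and 899 and 1001 FPKM in BC (-6.31 ± 0.11). Among the named transcripts that passed between the gonad stages, it had the widest gap. LIN28A, an inhibitor of let-7 maturation (chromosome 23, 175674 to 186981), was at 0.536 and 0.484 FPKM in E11G, 0.103 and 0.188 FPKM in E14G and 86.97 and 95.95 FPKM in BC (-6.13 ± 0.09). SALL4, a zinc finger partner of the pluripotency factors (chromosome 20, 13306171 to 13320346), was at 7.5 and 7.18 FPKM in E11G, 4.66 and 4.46 FPKM in E14G and 428 and 441 FPKM in BC (-5.998 ± 0.06). MYC, a growth-promoting transcription factor (chromosome 2, 139846801 to 139849040), was at 4.16 and 3.66 FPKM in E11G, 3.62 and 4.18 FPKM in E14G and 252 and 269.8 FPKM in BC (-5.74 ± 0.08). MYC and SALL4 kept a low level in all 4 gonad libraries, while LIN28A stayed under 1 FPKM.

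The remaining members of this group were MSX1, ERNI, HSPB9, VGLL2 and CDX2. MSX1, a homeobox factor of ectodermal borders (chromosome 4, 79398825 to 79401315), was at 2.997 and 3.5 FPKM in E11G, 0.537 and 0.536 FPKM in E14G and 283 and 309 FPKM in BC (-6.86 ± 0.08). ERNI, named for its early response to neural induction in chicken, was at 0.03 to 0.317 FPKM in the gonads and 86.8 and 78.7 FPKM in BC (-6.17 ± 0.08); its locus is shared with 1 other row. HSPB9, a small heat shock protein (chromosome 27, 5258005 to 5258998), was at 14.9 and 12.9 FPKM in E11G, 10.2 and 9.27 FPKM in E14G and 777 and 934 FPKM in BC (-6.08 ± 0.11). Like HSPA8, it belongs to the heat shock proteins and was lower in every gonad library. VGLL2, a cofactor of TEAD factors, was at 0 to 0.157 FPKM in the gonads and 60.4 and 69.5 FPKM in BC (-5.95 ± 0.10). CDX2, a caudal-type homeobox factor, was at 56.6 and 42.6 FPKM in BC and listed at 0 in all 4 gonad libraries, so no fold is given.

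**Figure D3:**
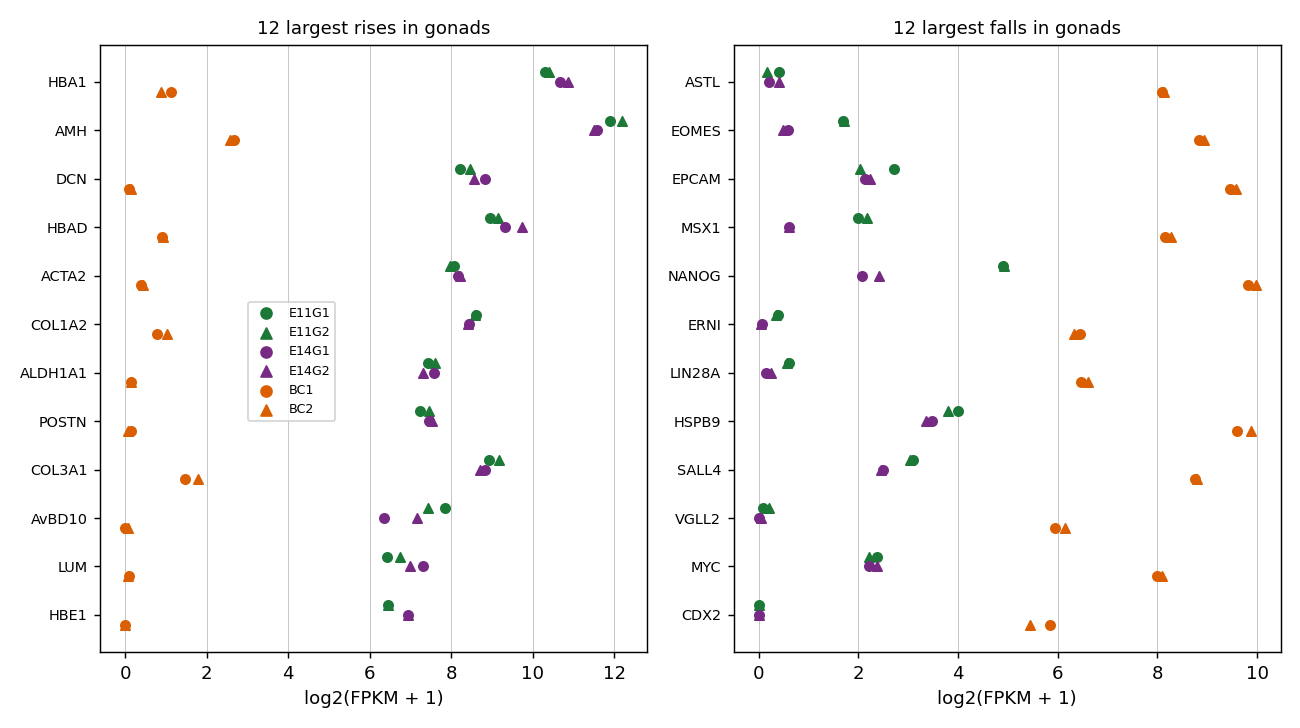
Levels of the 12 largest rises (left) and 12 largest falls (right), as log2(FPKM + 1) on the x axis; each point is 1 library, with E11G in green, E14G in purple and BC in orange. The 24 were chosen among called transcripts whose gonad and BC values do not overlap. NANOG shows its E11G libraries (28.7 and 29.2 FPKM) apart from its E14G libraries (3.24 and 4.33 FPKM).

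Gene lists were read by how many of their tested transcripts were called in each direction, beside the 35.5% higher and 49.3% lower over all RefSeq transcripts, whose median is -0.24. All lists were written with earlier results of these data known, so their counts and medians are a description. The lists of the gonad were mostly higher. For Sertoli cells and the male gonad, 15 of 22 listed symbols matched and 14 transcripts were tested; 13 were higher and 1 lower, with a median of 2.84. DMRT1, the Z-linked factor of chicken testis development, was at 56.3 and 50.8 FPKM in E11G, 68.4 and 64.1 FPKM in E14G and 0.666 and 0.577 FPKM in BC (5.22 ± 0.07, adjusted p = 2.42e-06). NR5A1, a nuclear receptor of steroidogenic and Sertoli cells, was at 27.6 and 25.6 FPKM in E11G, 36.5 and 37.3 FPKM in E14G and 1.67 and 2.07 FPKM in BC (3.50 ± 0.08). LHX9, a homeobox factor of the genital ridge, was at 89.3 and 90.04 FPKM in E11G, 50.6 and 56.5 FPKM in E14G and 0.222 and 0.181 FPKM in BC (5.87 ± 0.07). The BC values of DMRT1 and LHX9 were under 1 FPKM. WT1, a zinc finger factor of the gonadal epithelium, was already at 16.7 and 20.3 FPKM in BC and at 89.1 to 114 FPKM in the gonads (2.41 ± 0.09). SOX8, a relative of SOX9, was the member that was lower, at 1.22 and 0.877 FPKM in E11G, 2.22 and 2.11 FPKM in E14G and 2.72 and 2.69 FPKM in BC (-0.54 ± 0.10), and it did not pass in a model with the gonads as 1 group (adjusted p = 0.0827).

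Steroid synthesis rose in its core enzymes. Of 19 listed symbols 11 matched, and of the 10 transcripts tested 6 were higher, 1 was lower and 3 did not pass, with a median of 2.01. CYP11A1, which cuts the side chain of cholesterol, was at 136 and 127 FPKM in E11G, 145 and 137 FPKM in E14G and 1.95 and 1.64 FPKM in BC (5.62 ± 0.07, adjusted p = 2.35e-06). HSD3B1, the next enzyme of the pathway, was at 64.4 and 61.8 FPKM in E11G, 75.2 and 71.9 FPKM in E14G and 0.422 and 0.314 FPKM in BC (5.66 ± 0.07), and CYP17A1, which leads to androgens, at 217 and 109.7 FPKM in E11G, 228 and 225 FPKM in E14G and 2.86 and 3.32 FPKM in BC (5.53 ± 0.27). CYP11A1 and HSD3B1 were nearly level among the 4 gonad libraries, while CYP17A1 was about 2 times lower in E11G2 than in the others. HSD17B4, a peroxisomal enzyme, also rose (2.57 ± 0.09). FDX1, the electron carrier of CYP11A1, was lower instead, at 14.8 to 18.4 FPKM in the gonads against 28.9 and 31.3 FPKM in BC (-0.86 ± 0.08). The helper proteins POR (0.30) and CYB5A (-0.12) did not pass, though POR was called higher under median-of-ratios scaling (0.60, adjusted p = 0.00383), under quantile scaling (0.81, adjusted p = 0.00158) and without E11G2 (0.36, adjusted p = 0.0406). Without E11G1, 6 were higher, 3 lower and 1 did not pass, and CYB5A was among the 3 (-0.21, adjusted p = 0.0479).

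The list of the female gonad was mixed, with the same counts called in each direction without E11G1. All 8 listed symbols matched; of 7 transcripts tested, 2 were higher, 2 lower and 3 did not pass, with a median of 0.19. ESR1, the estrogen receptor alpha, was at 22.1 and 21.6 FPKM in E11G, 10.5 and 10.7 FPKM in E14G and 0.0132 and 0.042 FPKM in BC (3.99 ± 0.07). It was well expressed in all 4 gonad libraries. FOXL2, a forkhead factor of the ovary, was at 2.45 and 0.188 FPKM in E11G, 0.0869 and 0.554 FPKM in E14G and 68.3 and 82.6 FPKM in BC (-5.55 ± 0.45), so that its level in BC exceeded that in every gonad library. WNT4, a signal of ovarian development, was at 4.52 to 8.6 FPKM in the gonads against 19.6 and 27.5 FPKM in BC (-1.70 ± 0.16). NR0B1 (-0.08) and FST (0.19) did not pass, though FST was called higher under TPM (0.43, adjusted p = 0.0494) and median-of-ratios scaling (0.46, 0.00592). CYP19A1 did not pass with E11G1 (1.73 ± 1.83, adjusted p = 0.414), and without E11G1 it is below the filter of 1 FPKM. Without E11G2, the E11G mean rests on E11G1 alone and CYP19A1 was called higher (3.45, adjusted p = 0.000129).

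Most matched germ cell transcripts rose. Of 24 listed symbols only 7 matched a RefSeq row; 6 were higher, 0 lower and 1 did not pass, with a median of 1.83. PIWIL1, the Piwi protein that carries piRNAs, was at 21.8 and 13.5 FPKM in E11G, 27.98 and 26.6 FPKM in E14G and 1.8 and 1.99 FPKM in BC (2.97 ± 0.19, adjusted p = 6.1e-05). DAZL, an RNA-binding protein of germ cells, was at 62.7 and 58.3 FPKM in E11G, 56.2 and 48.7 FPKM in E14G and 9.98 and 11.6 FPKM in BC (2.29 ± 0.09). DDX4, the vasa helicase, was at 22.6 and 17.6 FPKM in E11G, 26.2 and 22.7 FPKM in E14G and 5.27 and 5.68 FPKM in BC (1.83 ± 0.12), and ASZ1, a mitochondrial partner of the piRNA pathway, at 18.01 and 14.9 FPKM in E11G, 21.2 and 18.4 FPKM in E14G and 2.19 and 2.59 FPKM in BC (2.49 ± 0.11). None of these 4 was absent from BC. TDRD7, a Tudor protein of germ granules, was at 12.7 to 17.5 FPKM in the gonads against 13.2 and 14.1 FPKM in BC and did not pass (0.07 ± 0.09). Under median-of-ratios scaling it was called higher (0.36, adjusted p = 0.00784).

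Stroma and matrix formed the list with the highest median. Of 34 listed symbols 26 matched, and 25 of the 26 transcripts were higher and 1 lower, with a median of 3.51. COL5A1, type V collagen, was at 75.3 to 82.96 FPKM in the gonads against 0.33 and 0.29 FPKM in BC (5.94 ± 0.06), OGN, osteoglycin, at 75.3 to 95.2 FPKM in the gonads against 0.0106 and 0.0159 FPKM in BC (6.40 ± 0.07) and SPARC, a collagen-binding glycoprotein, at 996 to 1078 FPKM in the gonads against 29.2 and 33.1 FPKM in BC (5.01 ± 0.08). OGN and SPARC share their loci with other rows of the table. LAMA1, a laminin chain of basement membranes, was the exception, at 82.003 to 96.8 FPKM in the gonads against 129 and 130.2 FPKM in BC (-0.53 ± 0.08, adjusted p = 0.00148). Its call depended on the scaling, since it was not called after rescaling to the same summed value (-0.26, adjusted p = 0.194) and was 0.13 under quantile scaling.

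Transcripts of contractile cells and of vessels were higher as well. For smooth muscle, 8 of 12 listed symbols matched and 9 transcripts were tested; all 9 were higher, with a median of 3.002, and 8 of 9 without E11G1. Besides ACTA2, CALD1, caldesmon, was at 18.2 and 17.5 FPKM in E11G, 30.2 and 33.5 FPKM in E14G and 2.3 and 1.85 FPKM in BC (3.02 ± 0.09) and TPM2, a tropomyosin, at 87.6 to 129 FPKM in the gonads against 19.95 and 22.6 FPKM in BC (2.27 ± 0.07). For endothelium, 10 of 15 listed symbols matched; 9 of the 10 tested were higher and 1 did not pass, with a median of 2.52. CDH5, the cadherin of endothelial junctions, was at 38.8 and 41.2 FPKM in E11G, 31.2 and 28.1 FPKM in E14G and 0.124 and 0.175 FPKM in BC (4.95 ± 0.08, adjusted p = 2.73e-06). KDR, a receptor of vascular endothelial growth factor, was at 33.2 and 29.7 FPKM in E11G, 9.4 and 10.8 FPKM in E14G and 0.46 and 0.31 FPKM in BC (3.77 ± 0.10), and FLI1 (2.93 ± 0.09) and FLT4 (2.69 ± 0.08) rose with it. TAL1, a factor of blood and vessel precursors, was at 1.5 to 2.2 FPKM in the gonads against 1.5 and 1.1 FPKM in BC and did not pass (0.26 ± 0.12). It was called higher under TPM (0.46, adjusted p = 0.0405) and median-of-ratios scaling (0.44, 0.0228).

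Blood cell transcripts were present in every gonad library. For the erythroid list, 14 of 26 listed symbols matched and 15 transcripts were tested; 10 were higher, 3 lower and 2 did not pass, with a median of 1.49. The alpha globins HBA1 and HBAD, given above, were the highest of them in each gonad library. HBE, a beta-type globin row that shares its locus with other globins, was at 9.9 and 12.8 FPKM in E11G, 3.05 and 2.18 FPKM in E14G and 5.84 and 6.18 FPKM in BC and did not pass over both stages (-0.08 ± 0.15). TFRC, the transferrin receptor, and CA2, a carbonic anhydrase, were lower in the gonads (-1.48 ± 0.12 and -1.81 ± 0.25). For macrophages and other leukocytes, 14 of 19 listed symbols matched and 12 were tested; 8 were higher, 3 lower and 1 did not pass, with a median of 1.52. CSF1R, the receptor of macrophage colony-stimulating factor, was at 8.18 to 9.4 FPKM in the gonads against 0.276 and 0.448 FPKM in BC (2.83 ± 0.10), CD74, the invariant chain of class II molecules, at 15.8 to 27.5 FPKM in the gonads against 0.795 and 0.942 FPKM in BC (3.52 ± 0.15) and SPI1, a myeloid transcription factor, at 2.67 to 3.14 FPKM in the gonads against 0 and 0.029 FPKM in BC (1.95 ± 0.08). CTSB, a lysosomal protease of many cell types, and TLR4, a receptor of bacterial lipopolysaccharide, were lower (-1.16 ± 0.06 and -1.66 ± 0.16).

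Retinoic acid synthesis and HOX transcripts were also among the rises. Of 19 listed symbols of the retinoic acid pathway 13 matched and 10 were tested; 6 were higher, 2 lower and 2 did not pass, with a median of 1.92. Beside ALDH1A1, the other retinal dehydrogenases ALDH1A2 and ALDH1A3 were at 62.5 to 122 FPKM in the gonads against 3.28 and 3.05 FPKM in BC and 64.03 to 84.5 FPKM in the gonads against 0.772 and 0.863 FPKM in BC (4.42 ± 0.08 and 5.34 ± 0.12). RARB, a retinoic acid receptor that is itself induced by retinoic acid, was at 11.4 to 17.9 FPKM in the gonads against 0.705 and 0.767 FPKM in BC (3.16 ± 0.08). RARA, another receptor, and CRABP1, a binding protein, were lower in the gonads (-1.22 ± 0.11 and -1.56 ± 0.14). CYP26A1, which degrades retinoic acid, was at 5.08 and 6.29 FPKM in E11G, 1.12 and 1.52 FPKM in E14G and 2.93 and 2.55 FPKM in BC, so that BC lay between the gonad stages.

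Of the HOX genes, which set position along the body axis, 21 were in the table and 15 were tested. Among these, 13 were higher, 1 was lower and 1 did not pass, with a median of 1.86, and 12 were higher without E11G1. HOXC8 was at 10.7 and 10.1 FPKM in E11G, 8.85 and 10.1 FPKM in E14G and 0.0874 and 0.0137 FPKM in BC (3.38 ± 0.09, adjusted p = 6.95e-06). HOXA9 (2.99 ± 0.08) and HOXA7 (2.54 ± 0.10) rose too. HOXB1, at the end of its cluster that is used first in the embryo, was the member that was lower, at 0 to 0.16 FPKM in the gonads against 5.02 and 4.88 FPKM in BC (-2.44 ± 0.10). HOXA2 was at 1.73 to 3.38 FPKM in the gonads against 2.56 and 2.21 FPKM in BC and did not pass.

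On the side of BC, the early embryo list showed the lowest median. Of 24 listed symbols 14 matched, and 13 of the 14 transcripts were lower and 1 did not pass, with a median of -4.92. Besides EOMES, NANOG, LIN28A and SALL4, DNMT3B, a DNA methyltransferase that sets new marks, was at 34.7 and 38.8 FPKM in E11G, 11.04 and 11.4 FPKM in E14G and 518 and 545 FPKM in BC (-4.63 ± 0.07). KLF2, a zinc finger factor, was at 1.95 to 3.82 FPKM in the gonads against 2.36 and 2.59 FPKM in BC and did not pass (0.10 ± 0.20). In the DNA methylation list, 7 of 12 listed symbols matched; 5 were lower and 2 higher, with a median of -1.69. DNMT3A, the other enzyme for new marks, was at 19.5 to 27.2 FPKM in the gonads against 141 and 153 FPKM in BC (-2.64 ± 0.10), and TDG, a glycosylase of the removal pathway, at 15.4 to 18.9 FPKM in the gonads against 59.1 and 58.6 FPKM in BC (-1.69 ± 0.07). DNMT1, which copies existing marks at replication, went the other way, at 24.1 to 30.2 FPKM in the gonads against 17.6 and 18.7 FPKM in BC (0.56 ± 0.07, adjusted p = 0.000606), as did TET2, which oxidizes 5-methylcytosine, at 10.7 to 12.3 FPKM in the gonads against 5.56 and 5.59 FPKM in BC (0.95 ± 0.07).

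In the NODAL, WNT and FGF list, 18 of 24 listed symbols matched and 18 transcripts were tested; 10 were lower, 5 higher and 3 did not pass, with a median of -0.58, shares near those of all RefSeq transcripts. WNT8A, a WNT ligand of the early embryo, was at 0.111 and 0.0237 FPKM in E11G, 0.245 and 0.18 FPKM in E14G and 47.99 and 44.4 FPKM in BC (-5.37 ± 0.09). FGF8, a growth factor of the primitive streak, was at 0.415 and 0.501 FPKM in E11G, 0 and 0 FPKM in E14G and 28.5 and 28.98 FPKM in BC (-4.62 ± 0.08). BMP4, a ventralizing growth factor, was at 4.38 to 6.18 FPKM in the gonads against 65.7 and 69.1 FPKM in BC (-3.43 ± 0.07), and a WNT3A row at a shared locus was at 21.1 and 23.004 FPKM in BC with traces in the gonads. The receptor FGFR1 and the signal transducer SMAD3 were higher in the gonads, at 59.4 to 74.9 FPKM in the gonads against 11.9 and 12.4 FPKM in BC (2.37 ± 0.07) and 45.3 to 55.7 FPKM in the gonads against 7.21 and 6.81 FPKM in BC (2.68 ± 0.11). FGF2 did not pass (0.23). Without E11G1, 9 were lower, 3 higher and 6 did not pass, and without E11G2 3 were called higher.

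Most transcripts of the maternal list were higher in BC, and those of the hypoblast list went in both directions. In the maternal list, 11 of 23 listed symbols matched and 10 were tested; 8 were lower in the gonads, 1 higher and 1 did not pass, with a median of -1.52. MOS, the kinase that holds the egg in meiosis, was at 0.0501 to 0.0875 FPKM in the gonads against 6.01 and 7.56 FPKM in BC (-2.86 ± 0.11), and BTG4, which drives the clearance of maternal mRNA in mammals, was at 4.17 and 5.9 FPKM in BC and listed at 0 in 3 gonad libraries (-2.57 ± 0.14). ZAR1L, related to a zygote arrest factor of mammals, was at 1.5 to 3.79 FPKM in the gonads against 24.7 and 28.04 FPKM in BC (-3.12 ± 0.22). CPEB1, a regulator of polyadenylation in oocytes, was the member called higher (0.41 ± 0.10), and it was not called without BC1 (adjusted p = 0.0611) or without BC2 (0.0641). UMOD, also on the kidney list, did not pass (-0.39) but was called lower without E11G1 (-0.80, adjusted p = 0.0126). In the hypoblast and yolk list, 12 of 14 listed symbols matched and 9 were tested. Of these, 6 were lower and 3 higher, with a median of -1.33, beside 49.3% lower and 35.5% higher over all RefSeq transcripts. FOXA2, a forkhead factor of endoderm, was at 0.0646 and 0.109 FPKM in E11G, 0 and 0.0592 FPKM in E14G and 28.2 and 31.3 FPKM in BC (-4.86 ± 0.09), and SOX17, another endoderm factor, at 5.33 to 6.9 FPKM in the gonads against 36.9 and 32.6 FPKM in BC (-2.31 ± 0.10). The plasma protein transcripts APOA1 and TTR, which the yolk sac and liver secrete in the embryo, were higher in the gonads, at 739 to 961 FPKM in the gonads against 33.5 and 40.5 FPKM in BC (4.46 ± 0.12) and 1.82 to 10.1 FPKM in the gonads against 0.0872 and 0.0318 FPKM in BC (2.49 ± 0.13).

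Epithelial adhesion transcripts went in both directions, as did all RefSeq transcripts (49.3% lower and 35.5% higher in the gonads). Of 26 listed symbols 13 matched, with 13 transcripts tested; 8 were lower in the gonads and 5 higher, with a median of -1.12. Besides EPCAM, the tight junction claudin CLDN1 was at 90.3 and 104 FPKM in E11G, 47.7 and 48.7 FPKM in E14G and 1543 and 1575 FPKM in BC (-4.49 ± 0.08). CDH2, N-cadherin, was at 150.3 and 149 FPKM in E11G, 121 and 125 FPKM in E14G and 5.73 and 6.42 FPKM in BC (4.28 ± 0.06), and CLDN5, the claudin of endothelial junctions, at 25.1 to 31.9 FPKM in the gonads against 1.996 and 1.69 FPKM in BC (3.36 ± 0.08). CDH2 and CLDN1 thus lay on opposite sides, each by more than 4 log2 units.

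Cell cycle transcripts were lower in the gonads in most cases. Of 37 listed symbols 28 matched and 26 transcripts were tested; 22 were lower, 3 higher and 1 did not pass, with a median of -1.32, which moved to between -1.05 and -0.75 under the other scalings. CCNB1, the cyclin of mitotic entry, was at 136 and 109 FPKM in E11G, 145 and 141 FPKM in E14G and 1169 and 1326 FPKM in BC (-3.23 ± 0.11, adjusted p = 1.13e-05). CDC25A, the phosphatase that activates cyclin-dependent kinases, was at 7.06 to 8.79 FPKM in the gonads against 149.7 and 163 FPKM in BC (-4.14 ± 0.06), CCNE1 at 7.41 to 10.9 FPKM in the gonads against 58.5 and 60.8 FPKM in BC (-2.60 ± 0.08) and CCNE2 at 7.52 to 10.5 FPKM in the gonads against 83.6 and 91.95 FPKM in BC (-3.13 ± 0.10). Both E cyclins serve entry into DNA replication. CDK2, the kinase partner of these cyclins, and CDKN1B, an inhibitor of it, were slightly higher in the gonads, at 60.8 to 85.1 FPKM in the gonads against 57.8 and 55.4 FPKM in BC (0.38 ± 0.09) and 27.6 to 38.5 FPKM in the gonads against 25.3 and 27.4 FPKM in BC (0.33 ± 0.07). Both calls were lost under some alternatives, CDK2 for example without BC1 (adjusted p = 0.054) and CDKN1B with the gonads as 1 group (adjusted p = 0.0989). Without E11G1, 2 were called higher and 2 did not pass, and without BC1 or without BC2, 1 of the 26 was called higher. CCND3 did not pass (-0.03), but was called higher under median-of-ratios (0.27, adjusted p = 0.0119) and quantile scaling (0.24, 0.0194).

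RNA regulators and sugar metabolism followed the same direction. In the list of RNA and translation control, 14 of 26 listed symbols matched; 10 were lower, 3 higher and 1 did not pass, with a median of -1.01. IGF2BP3 and IGF2BP1, which bind mRNA in early development, were at 25.3 to 27.5 FPKM in the gonads against 162 and 168 FPKM in BC (-2.59 ± 0.06) and 19.002 to 22.7 FPKM in the gonads against 94.2 and 99.3 FPKM in BC (-2.18 ± 0.06). DAZL and ZFP36L2 (0.50 ± 0.07) were higher. In the list of glucose use and respiration, 25 of 34 listed symbols matched and 25 transcripts were tested; 16 were lower, 5 higher and 4 did not pass, with a median of -0.82, or -0.51 under median-of-ratios scaling. A glucose transporter row that the reference names SLC2A14 was at 22.3 and 24.6 FPKM in E11G, 19.6 and 18.8 FPKM in E14G and 520.2 and 561 FPKM in BC (-4.61 ± 0.07, adjusted p = 2.49e-06). HK2, which traps glucose in the cell, was at 7.75 to 10.1 FPKM in the gonads against 55.01 and 57.6 FPKM in BC (-2.48 ± 0.09), and GPI, the next enzyme, at 124 to 131 FPKM in the gonads against 297 and 311 FPKM in BC (-1.26 ± 0.06). IDH2, a mitochondrial dehydrogenase, was higher in the gonads (0.87 ± 0.06). The respiratory chain subunit COX4I1 was at 432 to 464 FPKM in the gonads against 416 and 441 FPKM in BC and did not pass (0.06 ± 0.07), nor did ATP5F1AZ (-0.17). COX4I1 was called higher under median-of-ratios scaling (0.37, adjusted p = 0.00228). Under quantile scaling COX4I1 (0.46, adjusted p = 0.00429) and ATP5F1AZ (0.40, 0.00306) were called higher.

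Ribosomal protein transcripts were close to level. All 55 symbols were found by name, and 56 rows were tested; 17 were higher in the gonads, 11 lower and 28 did not pass, with a median of 0.07. These counts moved with the scaling, to 36 higher and 4 lower under median-of-ratios scaling with a median of 0.38. Without E11G1, 15 were higher, 11 lower and 30 did not pass. The counts moved more with the BC libraries, to 6 higher and 10 lower without BC1 and to 8 higher and 5 lower without BC2. RPS27L, a stress-induced variant of RPS27, was the highest rise of the list, at 39.6 to 52.9 FPKM in the gonads against 10.5 and 12.1 FPKM in BC (1.92 ± 0.09, adjusted p = 2.49e-05). The largest fall was a row that the reference calls RPL26L1 (-1.99, adjusted p = 8.31e-05). It differs from the RPL26L1 row among the highest in the gonads, which was called higher (0.80). RPS2 and RPL7L1 were also lower (-0.83 ± 0.09 and -0.81 ± 0.06).

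**Figure D4:**
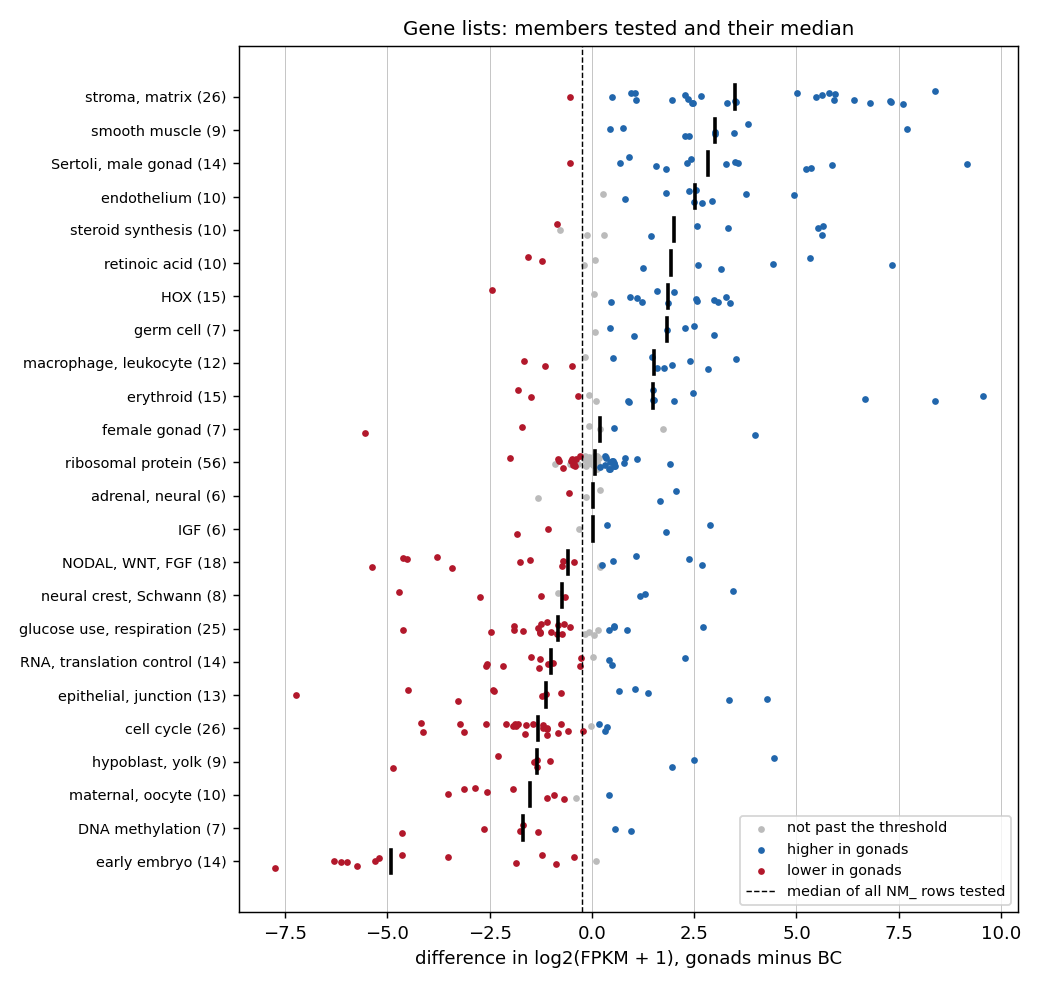
Difference in log2(FPKM + 1), gonads minus BC (x axis), of every tested member of the 24 gene lists with at least 5 tested transcripts, with the number tested in brackets. Each point is 1 transcript, blue if called higher in gonads, red if lower and grey if not called; black bars are list medians and the dashed line is the median of all RefSeq transcripts, -0.24. Stroma and matrix (median 3.51) lies at the top and the early embryo (-4.92) at the bottom.

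The lists of tissues beside the gonad were short and mixed. For the mesonephros and kidney, 5 of 17 listed symbols matched and 3 were tested; PAX2, a kidney duct factor, was higher at 2.13 to 2.68 FPKM in the gonads against 0.458 and 0.505 FPKM in BC (1.17 ± 0.09), and CALB1 and UMOD did not pass. CALB1 was at 5.97 FPKM in E11G1 and 0.449 to 1.26 FPKM in the other gonad libraries, and it was called higher without E11G1 (0.79, adjusted p = 0.0319) and without E11G2 (1.72, adjusted p = 0.00295). For adrenal, chromaffin and neural cells, 6 of 17 listed symbols matched; 2 were higher, 1 lower and 3 did not pass, with a median of 0.04. ELAVL4, a neuronal RNA-binding protein, was at 13.7 to 21.7 FPKM in the gonads against 4.53 and 4.76 FPKM in BC (1.67 ± 0.16), and GAP43, a protein of growing axons, at 10.03 and 3.86 FPKM in E11G, 1.96 and 2.34 FPKM in E14G and 0.0622 and 0.265 FPKM in BC (2.05 ± 0.34). NEFM, a neurofilament subunit, was at 8.11 and 5.82 FPKM in E11G, 1.53 and 2.21 FPKM in E14G and 5.53 and 6.53 FPKM in BC (-0.56 ± 0.17), with overlap between E11G and BC, and it was not called without BC1, BC2, E11G2 or E14G1 (adjusted p between 0.0517 and 0.170). Without E11G1, 5 were tested, with 2 higher, 2 lower and 1 not called. STMN2 did not pass with E11G1 (-1.31) and was lower without it (-2.09, adjusted p = 0.000263), and also without E11G2, where its difference was -0.53 (adjusted p = 0.0109). The summed level of this list was 55.2 FPKM in E11G1, 24.5 to 28.2 FPKM in the other gonad libraries and 18.0 and 19.9 FPKM in BC, and the adrenal enzyme CYP21A1 was at 2.61 to 5.7 FPKM in the gonads against 2.96 and 2.9 FPKM in BC. CYP21A1 did not pass (0.21) and was called higher without E14G1 (0.38, adjusted p = 0.0311). The part of these cells in the other results was not tested.

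For neural crest and Schwann cells, 8 of 9 listed symbols matched; 3 were higher, 4 lower and 1 did not pass, with a median of -0.74. SOX10, a factor of crest derivatives, was higher, at 1.42 to 2.2 FPKM in the gonads against 0.1 and 0.139 FPKM in BC (1.31 ± 0.12). ERBB3, a neuregulin receptor also used in epithelia, and FOXD3, which also serves pluripotent cells, were lower, at 0.578 to 0.847 FPKM in the gonads against 41.99 and 45.7 FPKM in BC (-4.72 ± 0.08) and 0.36 to 0.619 FPKM in the gonads against 8.84 and 8.51 FPKM in BC (-2.73 ± 0.08). FABP7, a fatty acid binding protein of glia, did not pass (-0.84) and was lower without E11G1 (-1.07, adjusted p = 0.0259) and without E14G2 (-1.03, adjusted p = 0.0360). For the insulin-like growth factors, 7 of 14 listed symbols matched and 6 were tested; 3 were higher, 2 lower and 1 did not pass, with a median of 0.03. IGF1 and IGF2, the growth factors themselves, went in opposite directions, with IGF1 at 5.06 and 4.69 FPKM in E11G, 8.9 and 8.49 FPKM in E14G and 0.0383 and 0 FPKM in BC (2.89 ± 0.08) and IGF2 at 19.5 to 37.1 FPKM in the gonads against 55.5 and 56.2 FPKM in BC (-1.06 ± 0.11). The receptor IGF2R, which clears IGF2 in mammals, was also lower in the gonads (-1.83 ± 0.06).

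The gonad stages differed from each other far less than from BC. E14G against E11G, in the same limma model, gave 858 transcripts (3.84%) past the threshold, of which 261 were RefSeq transcripts (4.77%), 138 higher and 123 lower in E14G. Of these 261, 232 also differed between gonads and BC, beside 4639 (84.8%) of all 5472 RefSeq transcripts. In the separate comparisons of E11G and of E14G with BC, which share the BC libraries, 4219 RefSeq transcripts passed in both, and 15 of them in opposite directions. NANOG fell between the stages by 2.66 on the log2 scale, and DNMT3B by 1.63, so that both moved further from their BC level. MSX1 and EOMES, also higher in BC, were lower in E14G than in E11G (-1.47 and -1.16). KDR and ESR1, higher in gonads than in BC, were lower in E14G as well (-1.55 and -0.98). CALD1, IGFBP4 and IGF1 were higher in E14G (0.80, 0.79 and 0.72). IGFBP2, a binding protein of the insulin-like growth factors, was at 23.4 and 18.9 FPKM in E11G, 39.4 and 47.2 FPKM in E14G and 38.5 and 36.6 FPKM in BC, and did not pass against BC (-0.31, adjusted p = 0.0552), but was called lower without E11G1 (-0.38, adjusted p = 0.0289) and without E14G2 (-0.37, adjusted p = 0.0363).

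**Figure D5:**
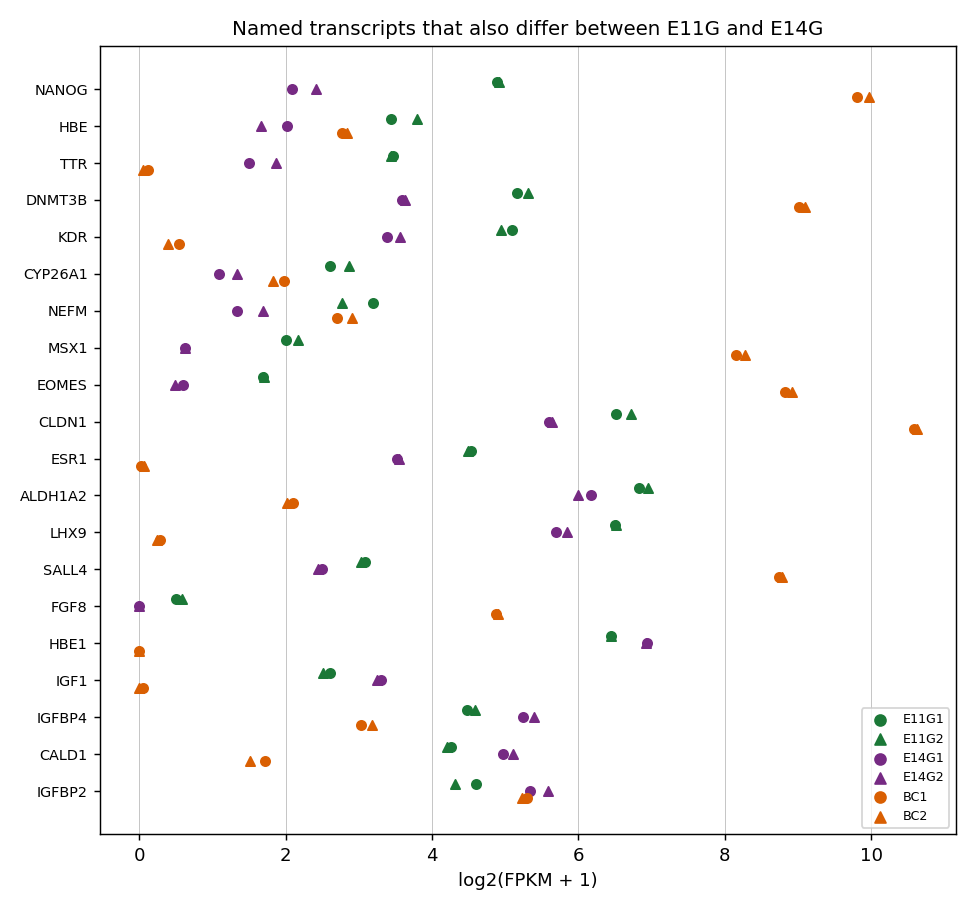
Levels, as log2(FPKM + 1) on the x axis, of the 20 named transcripts that also differ between E11G (green) and E14G (purple), with BC in orange; each point is 1 library and the order follows the difference E14G minus E11G, from NANOG (-2.66) to IGFBP2 (1.002). For HBE, CYP26A1, IGFBP2 and NEFM the BC values lie between the gonad stages or beside the E11G values.

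Position in the genome was not used to choose the transcripts. The 214 Z-linked RefSeq transcripts had a median difference of 0.12, against a median of -0.25 over 5138 autosomal ones. On Z, 99 (46.3%) were higher and 84 (39.3%) lower in the gonads, against 35.2% and 49.8% of the autosomal transcripts. The BC pools held W-linked transcripts and their sex make-up is not given, and its part in the Z difference was not tested. The Z median lay above the autosomal one under every scaling tried, at 0.42 against 0.03 with median-of-ratios, 0.38 against -0.01 after rescaling to the same summed value, and 0.34 with quantile scaling, where the autosomal median was at 0 to 2 decimals. The SD of the Z median over the 4 gonad libraries was 0.08, which leaves out the spread of the BC libraries. Among the chromosomes with the most RefSeq transcripts, the medians ranged from -0.67 on chromosome 20 to 0.10 on chromosome 24 and on the 212 transcripts placed on assembled Z. For transcripts alone at their locus, the 1304 with the longest genomic span had a median of 0.04, with 45.3% higher and 41.6% lower, against -0.37 in the 1598 shortest and -0.46 in the 1557 between them. These are descriptions without a test.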

How the data were processed

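The RNA-seq libraries were strand-specific total RNA libraries, read as pairs on a HiSeq instrument. Per the labels and the study's methods, the authors aligned reads to the chicken genome galGal5 with TopHat2, assembled and quantified transcripts with Cufflinks 2.2.1 against RefSeq and Ensembl annotations, and scaled the libraries with Cuffnorm. The authors deposited FPKM values per transcript, with no read counts, so a count test could not be run and the depth and its precision are unknown. The small RNA libraries were not used here.

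Rows with at least 1 FPKM in at least 1 of the 6 libraries were kept, and limma 3.58.1 in R 4.3.3 was fitted to log2(FPKM + 1) with 3 group means (E11G, E14G, BC), 1 shared spread and a mean-variance trend. The contrast was the mean of E11G and E14G minus BC, two-sided, and E14G minus E11G came from the same model. Adjusted p-values are Benjamini-Hochberg values over all rows tested, with a threshold of 0.05. The test was checked on simulated data with few changed rows and no shift between libraries. Most rows were called in the real data, so the check does not bear on the effect of the scaling. Gene symbols were matched by RefSeq accession to a RefSeq table of another assembly (GRCg7b), used for names only; coordinates are those of the deposited table.

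The named transcripts are the 10 highest on each side, the 12 largest rises and the 12 largest falls whose groups do not overlap, the 5 closest to no difference among the 100 highest, and from each of 26 gene lists up to 4 with the smallest p, up to 2 in the opposite direction and up to 2 not called. Some transcripts that this rule takes are not reported here. The members, lists and tests were chosen with earlier results of these data known. Alternatives were the pseudocount (0.1 and 5), the filter, the scaling, the model, each stage alone, and leaving out each library in turn. A planned count of promoter motifs was not run, because it needs promoter sequences that were not used here. Rows that share a locus, and near-identical copies, were kept but are uncertain, since Cufflinks divides reads between them.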

Additional observations from a re-analysis of the deposited data

Results flagged for a closer look

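Of the named transcripts, 20 differed between E14G and E11G in the limma model, so that their distance from BC differs between the gonad stages. Over all RefSeq transcripts, 261 (4.77%) differed, 138 higher and 123 lower in E14G. The difference E14G minus E11G, in log2(FPKM + 1) over 2 libraries of each stage, was negative for 15 of the 20 named transcripts. Among transcripts called lower in the gonads it was -2.66 for NANOG, -1.63 for DNMT3B, -1.47 for MSX1 and -1.16 for EOMES. For CLDN1 it was -0.996, for SALL4 -0.59 and for FGF8 -0.54. NEFM (-1.47) was also called lower for the mean of both stages, but not with E11G alone against BC (0.17). It lost this call with the gonads as 1 group (-0.56), under TPM (-0.35) and under median-of-ratios scaling (-0.30). Its E11G values (8.11 and 5.82 FPKM) overlapped those of BC (5.53 and 6.53 FPKM). All of these 8 were lower in E14G.

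Among transcripts called higher in the gonads it was -1.77 for TTR, -1.55 for KDR, -0.98 for ESR1, -0.81 for ALDH1A2 and -0.74 for LHX9, which were lower in E14G. It was 0.49 for the scaffold row of HBE1, 0.72 for IGF1, 0.79 for IGFBP4 and 0.80 for CALD1, which were higher in E14G. For transcripts not called against BC it was -1.78 for HBE, -1.52 for CYP26A1 and 1.002 for IGFBP2. The HBE, HBE1 and TTR rows share their loci with other rows. Without E11G1, E11G would rest on 1 library.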

How the results depend on the processing

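Of 170 named transcripts, 136 passed the threshold, and 14 of these lost it under at least 1 of 20 alternatives. Another 26 gained it with their sign kept under at least 1 alternative, and RPL23 gained it only with its sign turned. Among the 26, CCND3, ATP5F1AZ, CYB5A, HBE and CYP26A1 were also called with their sign turned under a different alternative. A 2-fold minimum was counted apart, and 23 of the 136 were below it. No paired analysis was possible because the RNA-seq labels carry no replicate numbers shared between the groups. Requiring at least 5 FPKM left 11563 transcripts called, 4783 of them higher. Keeping only transcripts alone at their locus, an alternative chosen after seeing the data, left 11671, with 5599 higher and 6072 lower. Both tested fewer transcripts. Adding a 2-fold minimum left 9750 called (4771 higher, 4979 lower), with 2560 RefSeq transcripts (1086 higher, 1474 lower). Leaving out 1 library gave 15811 to 17674 transcripts and 4173 to 4565 RefSeq transcripts. The Z median was 0.38 under TPM, 0.42 under median-of-ratios and 0.34 under quantile scaling.

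The sign turned for RPL23 (0.27) and CCND3 (0.27) under median-of-ratios scaling, and for CCND3 (0.24), ATP5F1AZ (0.40), CYB5A (0.38) and LAMA1 (0.13) under quantile scaling. It turned for NEFM (0.17) and HBE (0.81) with E11G against BC alone, and for CYP26A1 (-0.69) with E14G alone. The adrenal, chromaffin and neural median was -0.24 with a pseudocount of 0.1 and under quantile scaling (-0.24), and ranged from -0.0416 to 0.278 without 1 library. The insulin-like growth factor median ranged from -0.0378 to 0.0934 without 1 library. The causes were not tested. Unknown depth limits what can be said of low transcripts, and 2 BC libraries limit the small differences.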
